A study of Mus musculus with 9 samples.

Results

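Genes of the cytosolic ribosomal proteins were examined as sites of ZEB1 signal in PB3, a mouse line of breast cancer that the labels call Er-/Pr-/Her2-. ZEB1 is a zinc-finger repressor best known for silencing E-cadherin, and in CUT&RUN an antibody directs a nuclease to the protein so that only nearby DNA is freed and read. The 3 treated groups, labelled PB3_ERI, spent 24, 48 or 72 h in 300 nM eribulin, which blocks microtubule growth. The untreated group is labelled PB3-Parental, and 1 IgG library served the submitters' peak calling. Each of the 4 ZEB1 groups has 2 libraries, for 8 in all, and no other allele or agent is named. The files hold no expression values, so the identity of the line could not be checked against markers here, and whether the PB3_ERI and PB3-Parental labels mark different cultures from the outset is not stated.

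A gene boundary is here either end of a protein-coding gene. A peak was taken when the boundary nearest to its centre lay within 50 kb and belonged to a gene named Rpl or Rps plus a number, the Rps6k kinases left out. The rule used positions and symbols and no measured value. This gave 67 of the 23623 consensus peaks. They fell to 50 of the 87 protein-coding genes with such symbols. There were 41 peaks at 26 large subunit genes, 21 at 19 small subunit genes and 5 at genes that are related but are not standard subunits, namely Rps27l, Rpl36al, Rpl7l1, Rpl22l1 and Rps19bp1. Of the 50 genes, 41 had 1 peak, 5 had 2, 2 had 3, Rpl11 had 4 and Rpl3 had 6. Peaks of the same gene lie close together and are not replicates of a condition. The farthest member was the Rpl11 peak at 36.7 kb, and the next peak beyond the limit with a ribosomal protein gene as its nearest lay 97664.5 bases from Rpl34. The peak assigned to Rpl24 is tied between Rpl24 and Zbtb11, each with a boundary 3406.5 bases away. Its centre lies beyond the end of Rpl24 (55971437) and inside another gene. The 8 libraries held 326944 to 765015 counts in peaks, and the shallowest were at 72 h (441521 and 326944) and in untreated replicate 1 (372896).

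The ribosome of the cytosol is built from a large and a small subunit, each an RNA core clothed in small basic proteins. The genes for these proteins are housekeeping genes with CpG-rich promoters. Their transcripts usually open with a run of pyrimidines, the TOP tract, through which mTOR signalling controls their translation. Many carry small nucleolar RNAs (snoRNAs) in their introns, which guide the chemical modification of ribosomal RNA. ZEB1 binds E-box words, of which CACCTG is the best known. A peak near a gene marks a neighbour and does not show that ZEB1 acts on it.

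The promoters of the peaks described most closely below are shown from 200 bases before to 20 bases after the RefSeq start, on the gene's strand and build GRCm38.p6. Capitals mark 5 words searched on both strands: CACCTG (ZEB1 E-box), CACGTG (Myc E-box), CCGGAAG (ETS), AAGATGGC (YY1) and GGGCGG (SP1). CACCTG reads as CAGGTG on the other strand. Occurrences of different words may overlap. Rps10 and Rps15a had the largest changes over the mean of the eribulin times among boundary peaks that rose in some comparison, and Rps12 was the only boundary peak that fell in one. Rps19, Rpl41 and Rps21 held the strongest boundary signal of those in the promoter table. The table does not list Rps27a, and gives several starts for Rps19 and Rps21, of which 1 is shown.
Rps10 (chr17:27635225-27635444, minus strand): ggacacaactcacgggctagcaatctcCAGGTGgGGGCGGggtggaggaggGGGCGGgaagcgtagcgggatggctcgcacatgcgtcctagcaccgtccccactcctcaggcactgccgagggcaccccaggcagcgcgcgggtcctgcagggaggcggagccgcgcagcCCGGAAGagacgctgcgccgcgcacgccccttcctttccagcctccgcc
Rps15a (chr7:118116128-118116347, minus strand): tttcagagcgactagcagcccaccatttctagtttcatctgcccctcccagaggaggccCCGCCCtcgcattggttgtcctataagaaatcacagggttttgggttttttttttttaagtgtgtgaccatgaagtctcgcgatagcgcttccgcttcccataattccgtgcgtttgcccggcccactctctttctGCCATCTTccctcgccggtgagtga
Rps12 (chr10:23787190-23787409, minus strand): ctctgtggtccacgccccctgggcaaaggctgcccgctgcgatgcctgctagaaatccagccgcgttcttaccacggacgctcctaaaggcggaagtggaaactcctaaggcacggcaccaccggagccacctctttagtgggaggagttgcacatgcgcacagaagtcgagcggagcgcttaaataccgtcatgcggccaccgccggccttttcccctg
Rps19 (chr7:24884392-24884611, plus strand): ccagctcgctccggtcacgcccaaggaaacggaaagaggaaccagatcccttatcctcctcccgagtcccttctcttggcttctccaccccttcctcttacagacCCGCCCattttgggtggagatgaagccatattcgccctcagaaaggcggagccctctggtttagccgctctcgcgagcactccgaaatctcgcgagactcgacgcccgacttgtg
Rpl41 (chr10:128549149-128549368, minus strand): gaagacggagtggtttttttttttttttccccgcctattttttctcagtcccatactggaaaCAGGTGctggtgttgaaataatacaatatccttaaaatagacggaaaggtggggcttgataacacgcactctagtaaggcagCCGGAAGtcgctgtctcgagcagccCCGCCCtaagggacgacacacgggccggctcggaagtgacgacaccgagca
Rps21 (chr2:180257179-180257398, plus strand): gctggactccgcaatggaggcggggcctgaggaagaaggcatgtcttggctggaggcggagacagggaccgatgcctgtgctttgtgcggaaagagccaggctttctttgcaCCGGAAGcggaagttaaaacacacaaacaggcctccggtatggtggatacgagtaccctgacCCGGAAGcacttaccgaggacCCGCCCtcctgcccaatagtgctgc

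Of these 6, the Rps10 and Rpl41 windows hold the ZEB1 word, starting 173 and 138 bases before the gene start. The Rps12 window holds none of the 5 words. The Rps10 peak runs from -287 to 1, counted in bases from the start, and so covers its E-box. The Rpl41 peak, from -320 to 71, does so too. Around the start the Rps12, Rps10 and Rps15a promoters have unbroken pyrimidine runs of 11, 13 and 10 bases, against 4, 3 and 7 at the listed starts of Rps19, Rpl41 and Rps21.

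The RefSeq table gave 79 promoters, each of 300 bases (250 before the start and 50 after), for 67 of the 87 genes. Genes were grouped by a ZEB1 peak centred within 1 kb of either gene end, not by a peak on the promoter itself. Rpl22, Rps2 and Rps27l thus count as without a peak, though their peaks touch a listed start within the gene. Rpl12 and Rpl18 count as with a peak, though their boundary peaks centred farther than 1 kb from the listed start. Of 45 promoters of genes with a peak, 6 (13.3%) held CACCTG. The share was 11.8% for 34 promoters of ribosomal protein genes without one and 19.7% for 21263 protein-coding promoters. The 4 without a peak that held CACCTG were both listed Rpl22 promoters and those of Rpl37rt and Rps23rg1. Rpl37rt and Rps23rg1 are related genes and not standard subunits. Both groups include such related genes, among them Rpl32l, Rps27rt and Rpl31-ps12 in the group without a peak. The ETS word was in 37.8% of the promoters of genes with a peak, against 23.5% for genes without and 11.6% of all protein-coding promoters. The SP1 word was in 71.1%, against 35.3% and 46.2%. A pyrimidine run of at least 8 bases overlapped the stretch from 10 bases before to 15 after the start in 53.3%, against 23.5% and 15.4%. The YY1 word was in 8.89%, against 11.8% and 3.05%, and the Myc word in 13.3%, against 5.88% and 7.84%. These shares describe a 300-base window, and no test was run on them. Some genes have several promoters in the table.

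Most peaks of the family sat at gene boundaries. Of the 67 peaks, 45 (67.2%, 95% Wilson interval 55.3 to 77.2) had their centre within 1 kb of a gene boundary, against 36.9% of the 18106 consensus peaks that have any boundary within 50 kb. The rule itself asked for a boundary within 50 kb, so closeness is partly fixed by it. Mitochondrial ribosomal protein genes, the family's counterpart in another organelle, had 35 of 63 peaks at boundaries (55.6%, 43.3 to 67.2). Both intervals treat peaks as independent, though some peaks share a gene. Strand was known for 34 of the 45 boundary peaks, and 31 of these centred within 1 kb of a listed start, 22 upstream and 9 downstream, with a median position 103.5 bases upstream. The other 3 were at or near the ends of Rps15a and Rpl12, or, for Rpl18, at -2808.5 bases from the listed start. Of 4 peaks counted as inside genes, 3 also touched a listed start within the gene, with centres 13 bases after it at Rps27l, 65 bases after it at Rpl22 and 54 bases before it at Rps2. The share of genes with a boundary peak was 59.8% in the family (52 of 87), 60.3% for mitochondrial ribosomal protein genes (47 of 78) and 32.7% for all 21900 protein-coding genes.

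**Figure D1:**
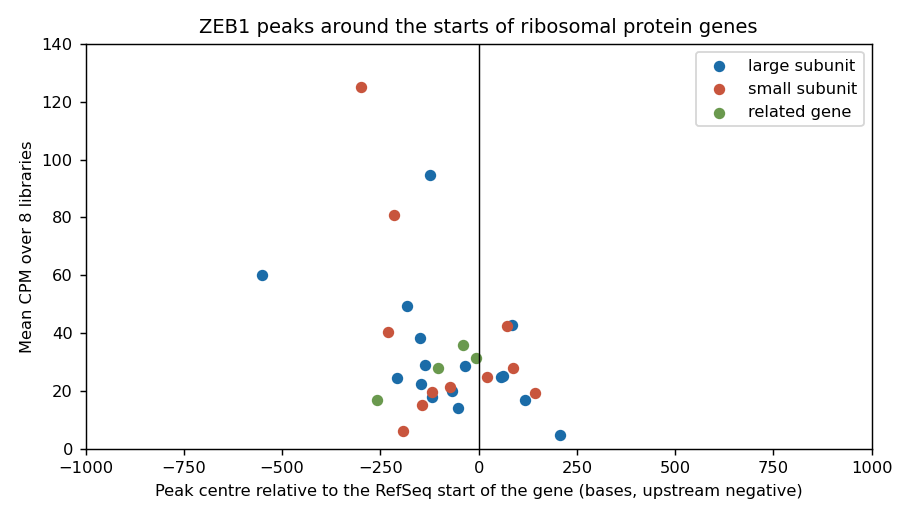
Mean CPM over the 8 libraries (vertical axis) against the distance in bases of the peak centre from the RefSeq gene start (horizontal axis, upstream negative) for 31 boundary peaks, coloured by subunit. The points lie between 550 bases upstream and 206.5 bases downstream, with Rps19 the highest at 125.0 CPM.

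Among the 52 genes, 8 had a boundary peak whose centre lay nearer to another gene, so it is not counted among the 67: Rpl15, Rpl36, Rpl37, Rpl3l, Rpl4, Rps18, Rps25 and Rps27. A further 29 genes had no consensus peak assigned or within 1 kb, among them Rpl5, which with Rpl11 restrains the p53 ligase MDM2, and Rps6, the substrate of S6 kinase. In 4 boundary peaks a second gene's boundary also lay within 1 kb, such as Mgat2 beside Rpl36al, Clhc1 beside Rps27a and Med22 beside Rpl7a. A snoRNA gene lay within 1 kb of 13 of the 67 peaks (19.4%), against 48 (0.203%) of all consensus peaks. No small nuclear RNA gene lay within 1 kb of a member. Of the 13 peaks, at genes such as Rps2, Rpl32, Rps3, Rpl7a, Rps12 and Rpl13, 11 could be tested and 1 was called in any of the 5 comparisons, where 26.4% of all tested peaks were called in at least 1.

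Signal at the family was of ordinary size. Levels are in CPM (the count of a peak scaled to a common library total), and the median over the family was 30.9 CPM, against 32.1 CPM for all peaks. Per kb of peak the boundary peaks of the family held a median of 99.2 CPM (quartiles 69.9 and 118), against 93.4 CPM (70.7 and 124) for all boundary peaks. The strongest member was a peak 15910 bases outside Rpl29, with 210.8 CPM on average and, per kb, 131.4. The libraries from untreated cells held 206.3 and 203.3 CPM there, those at 24 h 245.6 and 240.1, those at 48 h 172.0 and 183.1, and those at 72 h 235.8 and 200.8. The 48 h libraries were the lowest and the 24 h libraries the highest, and over the mean of the times the peak changed by 0.05 (SE 0.122, adjusted p = 0.819).

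Rps19, whose human gene is mutated in Diamond-Blackfan anaemia, had the strongest boundary peak, at chromosome 7 24883942 to 24884643. It held 156.8 and 136.1 CPM in untreated libraries, 95.5 and 124.1 after 24 h, 121.7 and 121.5 after 48 h, and 115.6 and 128.6 at 72 h. Both untreated libraries were above all 6 eribulin libraries, yet the change over the mean of the times, -0.28 (SE 0.145), did not pass (adjusted p = 0.168). Also strong were Rpl41, which encodes the smallest ribosomal protein, at 94.7 CPM on average (-0.30, SE 0.165), and the small subunit gene Rps21 at 80.8 CPM (0.51, SE 0.196, adjusted p = 0.0547). The peaks at 3193 bases from Rpl12 (63.5 CPM), 1070 bases from Rpl38 (63.3 CPM), 24022 bases from Rpl11 (60.1 CPM) and at the Rpl10 boundary (60.05 CPM) also did not pass, with adjusted p from 0.227 to 0.975. Of the 10 strongest peaks, Rps27a alone was called.

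Few peaks of the family were called. The share was below that of all peaks at 24 h, 48 h and over the mean of the times, and near it at 72 h and between 72 h and 24 h. The counts were tested with edgeR's quasi-likelihood test, and a peak was called at an adjusted p (Benjamini-Hochberg over 21192 tested peaks) below 0.05. Of the 67 peaks, 60 had enough counts to be tested. The other 7, at Rps23, Rpl37a, Rpl23, Rpl12 (2 peaks) and Rpl3 (2 peaks), averaged between 1.97 and 14.0 CPM and stood in 1 peak list each. After 24 h, 2 of the 60 rose and 1 fell, so 5.0% were called, against 11.0% of all tested peaks (6.44% higher, 4.61% lower). After 48 h, 3 rose and 1 fell (6.67%, against 11.5%, with 6.09% higher and 5.41% lower). After 72 h, 6 rose and 1 fell (11.7%, against 12.6%, with 6.84% higher and 5.74% lower). Over the mean of the 3 times, 2 rose and 1 fell (5.0%, against 16.8%, with 8.27% higher and 8.53% lower). Between 72 h and 24 h, 3 rose and none fell (5.0%, against 4.71%, with 2.32% higher and 2.39% lower). At an unadjusted p under 0.05 edgeR had 17 of the 60 higher and 1 lower in that last comparison. Over all tested peaks, 4519 had such a p, of which 2236 were lower. Among boundary peaks, 13 of the family's 41 had such a p and 0 were lower, against 121 lower of 1563 for all genes. In all, 11 peaks of the family were called in some comparison (18.3%, against 26.4% of all tested peaks) and 49 tested ones in none.

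Precision limits what these tests can show. Over the mean of the times the SE of a member's log2 fold change had a median of 0.277 and ran from 0.122 to 0.497. The replicates of a group differed by about counting error, with a chi-square per degree of freedom of 0.931 to 1.06 over all peaks, where 1 is pure counting noise. Such p-values measure the spread between these libraries, and the labels do not tell separate cultures from repeats of 1. DESeq2, run on the same peaks, called 0.0283 to 1.07% of all peaks and none of the 60 in any comparison, with 3 to 7 of them at an unadjusted p under 0.05 and no adjusted p given for 16 to 56. Ribosomal protein genes have many processed copies in the genome, and how reads that match several places were counted is not stated in the labels.

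Rps27a was the most widely called member. Its gene encodes ubiquitin fused to a small subunit protein, and the peak at chromosome 11 29547840 to 29548444 overlaps its boundary and lies near that of Clhc1. Untreated libraries held 44.0 and 55.0 CPM, those at 24 h 98.9 and 87.3, those at 48 h 91.3 and 90.7, and those at 72 h 87.8 in both. All 6 eribulin libraries were above both untreated ones and close to each other. The log2 fold change was 0.85 (SE 0.229, adjusted p = 0.00718) at 24 h, 0.83 (SE 0.229, adjusted p = 0.00925) at 48 h, 0.78 (SE 0.263, adjusted p = 0.0360) at 72 h and 0.82 (SE 0.202, adjusted p = 0.00214) over the mean of the times. The comparisons share the untreated libraries. Over the mean the call ended without untreated replicate 2 (adjusted p = 0.0555, range over the alternatives 0.0019 to 0.148). With either untreated library left out no single time passed, nor did 24 h, 48 h and 72 h without their own replicate 1 or 72 h without its replicate 2, with adjusted p from 0.0570 to 0.184.

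A peak 36.7 kb outside Rpl11, at chromosome 4 136089903 to 136090239, rose as well. Rpl11 encodes a large subunit protein that also binds MDM2. The libraries held 11.0 and 15.3 CPM in untreated cells, 35.8 and 39.6 after 24 h, 29.1 and 32.5 after 48 h, and 36.98 and 47.05 at 72 h. Every eribulin library was above both untreated ones. The log2 fold change was 1.45 (SE 0.386, adjusted p = 0.00704) at 24 h, 1.57 (SE 0.425, adjusted p = 0.00853) at 72 h and 1.385 (SE 0.345, adjusted p = 0.0024) over the mean, while 48 h, with 1.14 (SE 0.405), did not pass (adjusted p = 0.0530). Over the mean the call ended without untreated replicate 2 (adjusted p = 0.0808, range over the alternatives 0.00204 to 0.156). At 24 h it ended without 24 h replicate 2 (0.0722), untreated replicate 1 (0.0581) or 2 (0.0937), and at 72 h without 72 h replicate 2 (0.0847) or untreated replicate 2 (0.0702). The other Rpl11 peaks were not called: over the mean the boundary peak had -0.69 (SE 0.295) and those at 24022 and 28524.5 bases had -0.01 and 0.00.

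The fall that passed over the mean was beside Rpl3, a large subunit gene whose protein reaches near the peptidyl transferase centre. This peak, at chromosome 15 80070267 to 80070662, lies 7316.5 bases outside the gene. Untreated libraries held 104.5 and 64.2 CPM, those at 24 h 68.2 and 54.6, those at 48 h 51.6 and 42.8, and those at 72 h 37.0 and 53.3. Untreated replicate 1 was the highest library, and replicate 2 overlapped with 24 h. The log2 fold change was -0.72 (SE 0.242, adjusted p = 0.0377) at 48 h, -0.84 (SE 0.289, adjusted p = 0.0413) at 72 h and -0.64 (SE 0.205, adjusted p = 0.0202) over the mean. Over the mean the call ended without untreated replicate 1 (adjusted p = 0.402) or 72 h replicate 1 (0.0677), with a range of 0.0109 to 0.402 over the alternatives. The fold change over the mean was -0.36 without untreated replicate 1 and -1.05 without untreated replicate 2, and at 48 h it was -0.44 and -1.12. At 48 h the call ended without untreated replicate 1 (0.387) or either 48 h library (0.0700 and 0.165), and at 72 h without untreated replicate 1 (0.297) or 72 h replicate 1 (0.399). The Rpl3 boundary peak had -0.34 over the mean and was not called.

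After 24 h, Rps12 fell. Its gene encodes a small subunit protein, and the peak at chromosome 10 23787048 to 23787325 covers the gene start in the promoter shown above. Libraries at 24 h held 11.9 and 13.6 CPM, against 33.0 and 35.2 CPM in untreated cells, and the log2 fold change was -1.40 (SE 0.398, adjusted p = 0.0119). The peak held 23.8 and 20.5 CPM at 48 h, and 18.5 and 40.8 CPM at 72 h, where the libraries spanned both untreated values and the change of -0.30 did not pass. The 24 h call rests on 7 and 10 counts, against 12 and 23 in untreated libraries, and ended without untreated replicate 2 (adjusted p = 0.185) or either 24 h library (0.0739 and 0.0742), with a range of 0.0105 to 0.185 over the alternatives.

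At 48 h, Rps15a (small subunit) and Rpl21 (large subunit) rose beside Rps27a. At the Rps15a start, chromosome 7 118116157 to 118116374, libraries at 48 h held 27.8 and 30.8 CPM, against 11.0 and 12.2 CPM in untreated cells (log2 fold change 1.29, SE 0.427, adjusted p = 0.0363). At Rpl21, chromosome 5 146832755 to 146833249, libraries at 48 h held 54.2 and 47.9 CPM, against 27.5 CPM in each untreated library (0.90, SE 0.300, adjusted p = 0.0380). Both were also above the untreated libraries at 72 h, with 25.4 and 18.8 CPM for Rps15a and 50.85 and 47.05 CPM for Rpl21, but neither passed there (0.93 and 0.83). A second Rps15a peak, at the gene's end, had -0.03 at 48 h. Leaving out either 48 h or either untreated library ended both calls, with adjusted p from 0.0955 to 0.237 for Rps15a and 0.0622 to 0.266 for Rpl21. Over all alternatives these ran from 0.0332 to 0.237 and from 0.0336 to 0.527.

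At 72 h the rises also took in peaks at the small subunit gene Rps10 and the large subunit gene Rpl29. A peak assigned to the large subunit gene Rpl24, but lying inside another gene, rose too. At Rps10, chromosome 17 27635243 to 27635531, whose human gene is also mutated in Diamond-Blackfan anaemia, libraries at 72 h held 32.4 and 18.8 CPM, against 2.75 and 10.7 CPM in untreated cells (log2 fold change 1.73, SE 0.573, adjusted p = 0.0326). These are 14 and 6 counts, against 1 and 7, and the untreated value of 2.75 CPM is below the 8.25 CPM that 3 counts make in that library. The fold change was 3.17 without untreated replicate 2 and 1.23 without 72 h replicate 1. The 72 h libraries did not overlap the untreated ones.

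The Rpl24 peak, at chromosome 16 55974448 to 55975239, held 57.8 and 75.3 CPM at 72 h, against 33.0 and 27.5 CPM in untreated cells (log2 fold change 1.14, SE 0.318, adjusted p = 0.0104). The Rpl29 boundary peak, at chromosome 9 106429251 to 106429797, held 78.6 and 72.2 CPM at 72 h, against 33.0 and 47.4 CPM (0.84, SE 0.283, adjusted p = 0.0359). At 24 h these peaks held 34.1 and 32.7 CPM (Rpl24) and 40.9 and 43.7 CPM (Rpl29), close to the untreated pair. None of these 3 peaks was called at 24 h, at 48 h or over the mean of the times. Without untreated replicate 2 none of the 3 passed at 72 h, with adjusted p = 0.0539 for Rps10, 0.181 for Rpl24 and 0.0808 for Rpl29. The calls also ended without 72 h replicate 1 for Rps10 (0.406) and Rpl29 (0.240), without 72 h replicate 2 for Rpl24 (0.125) and Rpl29 (0.0895), and without untreated replicate 1 for Rps10 (0.171) and Rpl29 (0.176). Over all alternatives the p-values ran from 0.0257 to 0.406 for Rps10, 0.00965 to 0.243 for Rpl24 and 0.0344 to 0.346 for Rpl29.

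**Figure D2:**
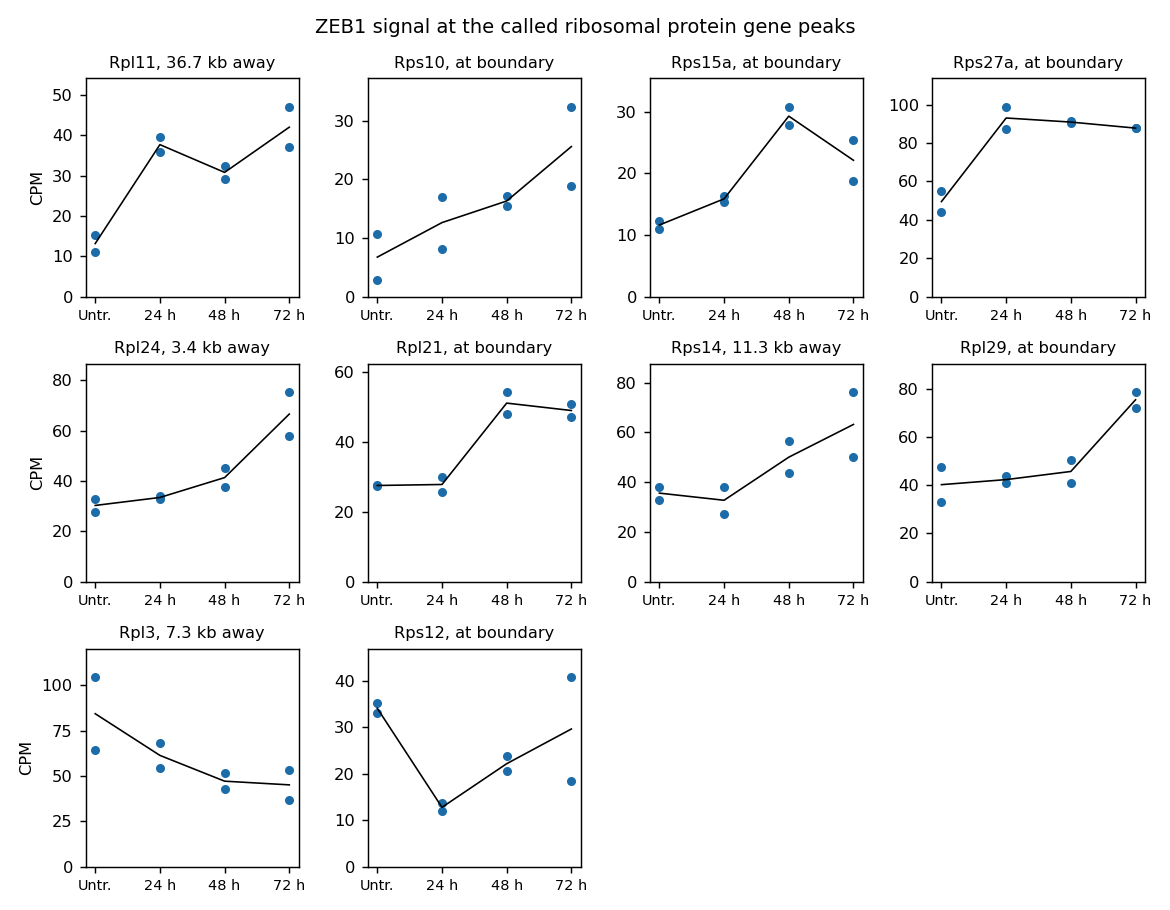
CPM in each library (points, 2 per group) and the group mean (line) for 10 of the 11 called peaks, by time in eribulin, each panel on its own vertical axis from 0. Rps27a and the far Rpl11 peak were higher in all 6 eribulin libraries, with 87.3 to 98.9 CPM and 29.1 to 47.05 CPM, than in both untreated libraries, and Rps12 was lowest at 24 h.

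Between 72 h and 24 h the peaks assigned to Rpl29, Rpl24 and Rps14 rose. Rps14, a small subunit gene lost in the human 5q- syndrome, has its peak 11313.5 bases outside the gene on chromosome 18. It held 76.3 and 50.2 CPM at 72 h, against 27.3 and 38.2 CPM at 24 h (log2 fold change 0.96, SE 0.296, adjusted p = 0.0398). The changes at Rpl24 (0.96, SE 0.292, adjusted p = 0.0371) and Rpl29 (0.83, SE 0.267, adjusted p = 0.0488) were of like size. At each of the 3 peaks both 72 h libraries were above both 24 h libraries. Leaving out any 1 of these 4 libraries ended each call, with adjusted p from 0.135 to 0.313 for Rpl29, 0.0933 to 0.272 for Rpl24 and 0.0506 to 0.544 for Rps14. The Rpl29 call also ended without untreated replicate 1 (0.0511) or 2 (0.0527) and with no filter on low counts. Without 72 h replicate 1 the Rps14 change was 0.57. Over all alternatives the adjusted p began at 0.0445 for Rpl29, 0.0339 for Rpl24 and 0.0144 for Rps14.

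Among the 49 tested peaks called nowhere, the lowest log2 fold change was -0.91 (Rps7) at 24 h and -0.71 (Rpl35) at 48 h. At 72 h they ran from -1.10 (Rpl14, 19143 bases from the gene) to 1.27 (Rpl34). The median SE of a tested member was 0.356 at 72 h.

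At 72 h the boundary peaks of the family had a median above 0, and so did the boundary peaks of all genes. The family's median log2 fold change was -0.13 at 24 h, 0.05 at 48 h and 0.35 at 72 h, over 41 tested peaks. The 6027 tested boundary peaks of all genes had 0.06, 0.20 and 0.37, while all 21192 tested peaks had medians between -0.01 and 0.01. At 72 h 30 of the 41 peaks (73.2%) were above 0, against 76.4% of all boundary peaks. Between 72 h and 24 h the median was 0.50, with 35 of 41 (85.4%) above 0, against 0.32 and 76.2% for all boundary peaks. Calls among the 41 were 4.88% at 24 h, 7.32% at 48 h, 9.76% at 72 h and 2.44% both over the mean and between 72 h and 24 h. All boundary peaks had 9.57, 10.1, 15.1, 15.2 and 6.04%. The 19 tested members away from boundaries had a median of 0.11 at 72 h, with 2 rises and 1 fall. The 15165 tested peaks of all genes away from boundaries had a median of -0.15, with 3.91% rising and 7.65% falling. No test compares these sets.

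**Figure D3:**
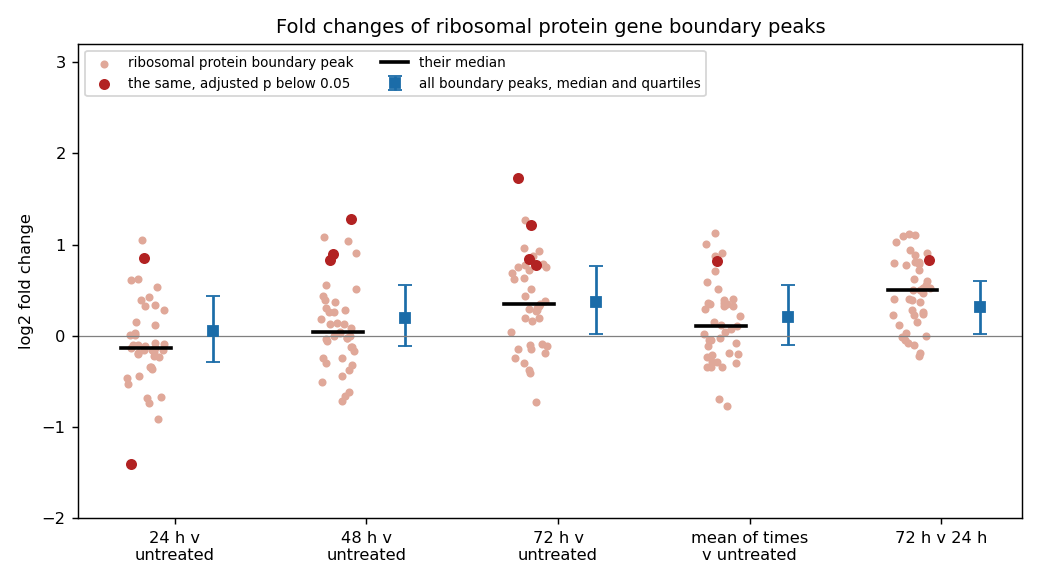
Log2 fold change (vertical axis) of 41 tested boundary peaks of the family (points, dark where called, black line at their median) in 5 comparisons, beside the median and quartiles of 6027 boundary peaks (squares with bars). The family's median lies at -0.13 at 24 h and 0.35 at 72 h, against 0.06 and 0.37 for all boundary peaks.

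Small subunit genes had a higher median than large subunit genes at 72 h, 0.63 over 20 tested peaks against 0.27 over 35, and the 5 related genes had 0.29. At 24 h the medians were -0.13, -0.08 and -0.11. At 72 h, 3 small subunit peaks rose and none fell, while 3 large subunit peaks rose and 1 fell. That is 3 of 20 and 4 of 35 called, near the 12.6% of all peaks. The 5 related genes had 0 calls in edgeR and 0 in DESeq2 at 72 h, with 2 at an unadjusted p under 0.05 in edgeR, and the largest change among them was 0.77, at Rpl22l1. The difference between subunits was not tested.

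Summed over the 45 boundary peaks, the family held 0.154 and 0.146% of the counts in untreated libraries, 0.1345 and 0.1455% after 24 h, 0.163 and 0.157% after 48 h, and 0.184 and 0.187% after 72 h. Both 72 h libraries were above all others, with the 95% Wilson interval of 72 h replicate 1 from 0.1715 to 0.1968 and that of untreated replicate 1 from 0.142 to 0.167. All boundary peaks together held 27.66% and 27.45% in untreated libraries, 27.66% and 28.41% after 24 h, 31.48% and 29.84% after 48 h, and 33.75% and 34.67% after 72 h. Within the boundary counts the share of the family was 0.558 and 0.531% in untreated libraries, 0.486 and 0.512% after 24 h, 0.516 and 0.526% after 48 h, and 0.544 and 0.538% after 72 h. The 72 h shares lie within the interval of either untreated library (0.514 to 0.605 and 0.499 to 0.565). Intervals cover counting error only.

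**Figure D4:**
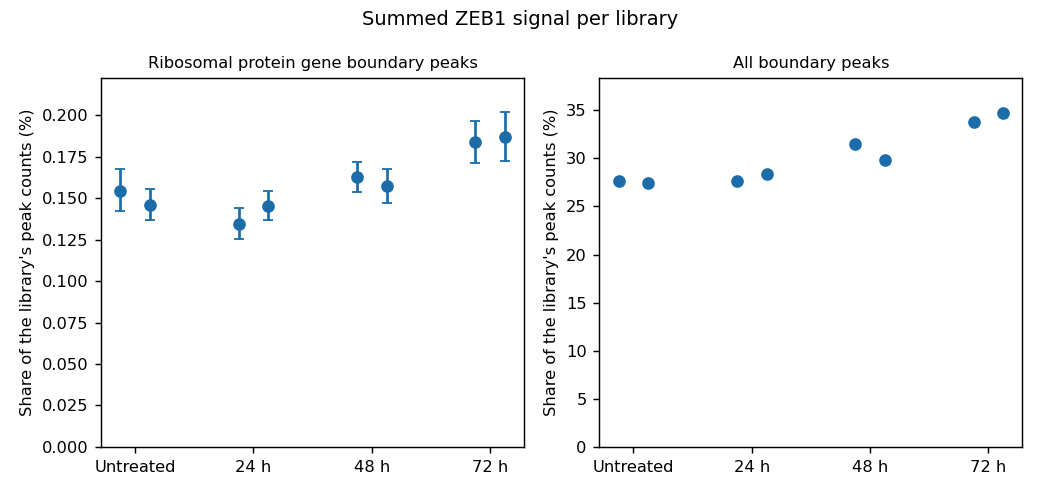
Share of each library's peak counts (percent, with 95% Wilson intervals) in the 45 boundary peaks of the family (left) and in all 6690 boundary peaks (right), by time in eribulin. Both are highest at 72 h, with 0.184 and 0.187% for the family and 33.75 and 34.67% for all boundary peaks at 72 h.

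The peak lists, 1 per group and with no replicates, showed the family most often in untreated cells. Of the 67 peaks, 56 (83.6%) overlapped the untreated list, 37 (55.2%) the list at 24 h, 37 (55.2%) at 48 h and 39 (58.2%) at 72 h. All consensus peaks gave 78.7, 63.0, 60.2 and 51.6%. Among boundary peaks alone the family had 80.0, 53.3, 55.6 and 60.0%, against 75.6, 63.1, 66.2 and 69.1% of all boundary peaks. In all 4 lists were 25 of the 67 (37.3%, 95% Wilson interval 26.7 to 49.3), against 34.7% of all peaks. The untreated list alone held 17 (25.4%, 16.5 to 36.9), against 19.0% (18.5 to 19.5) of all peaks. Intervals in this paragraph treat peaks as independent, though some share a gene, as at Rpl12 and Rpl3. Of the family's boundary peaks, 37.8% were in all 4 lists and 22.2% (12.5 to 36.3) in the untreated list alone. All boundary peaks had 42.1% and 12.2% (11.5 to 13.0). Among the 17 were Rps7, Rps3, Rpl7a, Rpl35 and Rps12, and 6 of the 17 had a snoRNA gene within 1 kb, as had 13 of the 67. By the counts, only the Rps12 peak of the 17 was called in any comparison. Those at Rpl23, Rpl12 and Rpl3 were not tested. Over the mean of the times Rps7 had -0.34, Rps3 -0.04, Rpl7a -0.19, Rpl35 -0.23 and Rps12 -0.77. Rps10, Rps20 and Rpl34 were in the 72 h list alone. The far Rpl11 peak and Rpl22 were in all 3 eribulin lists and not in the untreated list. Of mitochondrial ribosomal protein peaks, 9.52% (4.44 to 19.3) were in the untreated list alone.

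The lists give each peak a fold over IgG, which is the authors' own value for that peak. Over the peaks found in each list, the family's median was 6.1 in the untreated list, 7.0 at 24 h, 8.38 at 48 h and 6.82 at 72 h. All consensus peaks found in each list had 7.14, 7.43, 8.92 and 6.82. The family's medians cover 56, 37, 37 and 39 peaks, so they compare different sets of peaks between times. The highest in the untreated list were Rpl41 (19.6), the Rpl3 peak described above (17.9) and Rps19 (15.1). That Rpl3 peak had 14.0 at 24 h, 11.9 at 48 h and 6.15 at 72 h, in the same order as its counts.

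**Figure D5:**
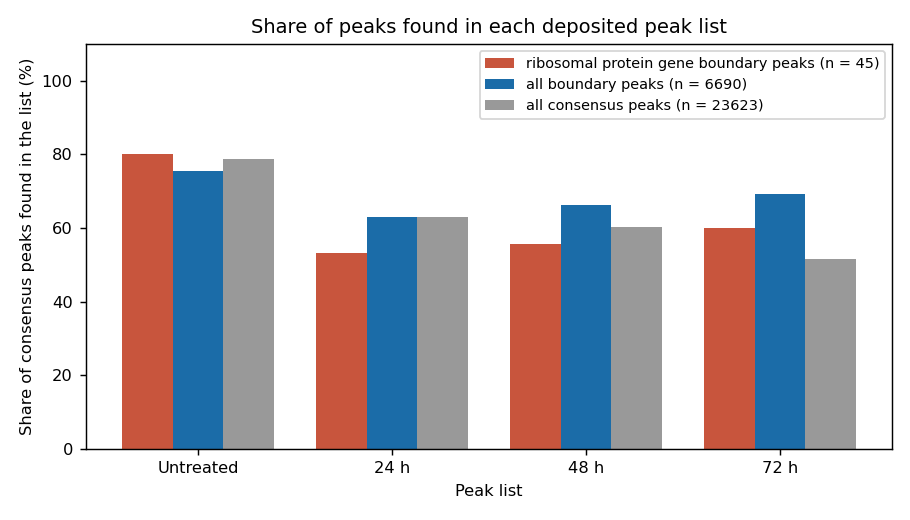
Share (percent) of consensus peaks that overlap the deposited peak list of each group, for the 45 boundary peaks of the family, all 6690 boundary peaks and all 23623 peaks. The family's share is 80.0% in the untreated list and 53.3% at 24 h, where all boundary peaks have 75.6 and 63.1%. At 72 h the family has 60.0% and all boundary peaks 69.1%.

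The other lists, for genes of the ribosome and of translation, are given over the mean of the times, where 16.8% of all peaks were called. Ribosomal genes outside the naming rule, such as Rplp0, Rpsa and Fau, had 6 tested peaks at 6 genes of 7, with 0 calls in edgeR and in DESeq2 over the mean and 0 at an unadjusted p under 0.05. Of 42 peaks near 29 ribosome biogenesis genes, 35 were tested. Of these 35, 7 rose and none fell, with a median of 0.19, and 2 were lower at an unadjusted p under 0.05. DESeq2 called 0 of the 35, and 1.07% of all peaks. Examples were Polr1d, a subunit shared by RNA polymerases I and III, at its boundary (1.12, SE 0.314, adjusted p = 0.00730), and Taf1d, of the RNA polymerase I selectivity factor (0.99, SE 0.321, adjusted p = 0.0231). Of 81 peaks near 43 translation factor genes, 71 were tested, and 3 of the 71 rose and 3 fell (8.45%). Eif4ebp1, an mTOR target that binds the cap factor, rose by 1.58 (SE 0.529) and Eif2b4, of the exchange factor of initiation, by 0.96 (SE 0.205, adjusted p = 3.48e-04), while Eif3f (-0.85) and a peak near Tpt1 (-0.69) fell. At Eif4ebp1 the untreated libraries held 11.0 and 3.06 CPM, the latter below the 4.59 CPM that 3 counts make in that library.

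Of 35 peaks near 18 regulators of ribosomal protein synthesis, 31 were tested, and 2 of the 31 rose and 1 fell. The S6 kinase gene Rps6kb2 (1.53, SE 0.450, adjusted p = 0.0110) and the related kinase gene Rps6ka1 (1.25, SE 0.358) rose at their boundaries, and a peak 2293 bases from Myc, which drives ribosome production, fell (-0.94, SE 0.318, adjusted p = 0.0301). Mitochondrial ribosomal protein genes had 8 rises and 1 fall in 59 tested peaks (15.3%, against 5.0% of the family and 16.8% of all peaks). The largest rises were Mrps24 (2.12, SE 0.313, adjusted p = 1.96e-07) and a peak 1088.5 bases from Mrpl52 (1.70, SE 0.568), and Mrpl45 fell (-0.67, SE 0.172). The Mrpl52 peak held 8.25 and 3.06 CPM in untreated libraries, where 3 counts make 8.25 and 4.59 CPM. Without untreated replicate 2, none of the peaks named from these lists but Mrps24 (adjusted p = 5.78e-04) passed, with Taf1d nearest at 0.0716.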

How the data were processed

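The authors deposited raw counts per library for each consensus peak, taken as whole numbers with no scaling, and 4 peak lists, whose peak names point to replicate 1 against IgG. Per the labels and the peak-list format, the authors give each peak a fold (ratio) over IgG and the −log10 of its q-value. The submitters' processing notes name Bowtie2 2.2.6, MACS2 2.1.1, bedtools 2.30.0, featureCounts and GRCm38 (mm10). The role of replicate 2 in making the lists was not stated in the labels. Genes came from the RefSeq table of GRCm38.p6. Library totals in peaks ran from 326944 to 765015 counts.

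Counts were fitted in edgeR 4.0.16 (R 4.3.3) with filterByExpr by group, TMM (factors 0.994 to 1.01), 1 mean per group and a robust quasi-likelihood F-test. DESeq2 1.42.0 was an alternative. The other alternatives were size factors or library totals, no filter, thinning, summed pairs, a replicate block, each library left out and narrower windows. A standard error is the log2 fold change over the root of F. No spike-in scaling was applied here, so changes are relative to other peaks of a library. Peaks called in these same libraries favour those high in some group. The fit was tested on simulated data. Named peaks were all members called in any comparison, the 10 strongest, and up to 2 rises and 2 falls per other list. Some members that this rule names are not reported here. Promoters were to be printed for the 3 largest rises and falls among called boundary peaks, plus 3 of the strongest. Of the called ones this left Rps10, Rps15a and Rps12, as Rps27a has no listed promoter and no other boundary peak was called as falling. Members and lists were chosen with earlier results of these data known.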

Additional observations from a re-analysis of the deposited data

Results flagged for a closer look

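The signal at 3 peaks differed between 72 h and 24 h in eribulin, by the edgeR test. No untreated group is matched to each time, so time in eribulin cannot be told apart from time in culture. The 3 peaks are 5.0% of the 60 tested members, near the 4.71% of all peaks called in that comparison. The Rpl29 boundary peak was higher at 72 h by 0.83 on the log2 scale (adjusted p = 0.0488), in 2 of 2 libraries. The Rpl24 peak, inside another gene, was higher by 0.96 (adjusted p = 0.0371) and the Rps14 peak by 0.96 (adjusted p = 0.0398), also in 2 of 2 libraries. Across all boundary peaks, the class of the Rpl29 peak, the median of that comparison was 0.32. Across all other peaks, the class of the Rpl24 and Rps14 peaks, it was -0.14, with 0.95% rising. The boundary share of the 72 h libraries, 33.75 and 34.67% of counts, was above that of the 24 h libraries, 27.66 and 28.41%. The 72 h libraries were also the shallower pair, with 441521 and 326944 counts, against 602187 and 747259 at 24 h. The part of either in these 3 results was not tested. Groups of 2 libraries are too small to test for a library that stands apart.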

How the results depend on the processing

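The number of called members moved with depth, test and libraries. All peaks lost calls with them. DESeq2 called 0 members in each of the 5 comparisons, and 0.0283 to 1.07% of all peaks. With libraries thinned to the smallest total, 0 were called at 24 h, 0 at 48 h, 2 at 72 h, 0 over the mean and 1 between 72 h and 24 h, where all peaks had 4.52, 4.26, 8.4, 9.26 and 2.6%. Thinned medians were -0.067, -0.105 and 0.43 at the 3 times, and 0.295 between 72 h and 24 h. With summed pairs 2 were called at 48 h and 0 between 72 h and 24 h (median 0.283). Members within 1 kb had 4 calls at 72 h, 1 over the mean and 1 between 72 h and 24 h, with medians of 0.047 at 48 h, 0.107 over the mean and 0.498 between 72 h and 24 h. A 10 kb window gave medians of 0.039, 0.368 and 0.478 at 48 h, 72 h and 72 h against 24 h, and DESeq2 gave -0.052 at 48 h.

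Leaving out 1 library gave 0 to 3 calls at 24 h, 0 to 4 at 48 h, 1 to 7 at 72 h, 1 to 5 over the mean and 0 to 3 between 72 h and 24 h. The medians then ran from -0.151 to 0.02, -0.11 to 0.066, 0.221 to 0.365, 0.043 to 0.148 and 0.231 to 0.375. Without untreated replicate 2 the counts against untreated were 0, 1 and 1 at the 3 times and 1 over the mean, where all peaks had 2.3, 2.34, 3.22 and 3.0%. Without untreated replicate 1 there were 1, 0 and 3 at the 3 times. The cause of these moves was not tested, and fewer libraries or counts reduce power by construction.

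The replicate block gave 3, 5, 7, 3 and 2 calls, and ended 1 named call (Rpl29, 72 h against 24 h, adjusted p = 0.0518). Replicate deviations correlated between groups at -0.0287 to 0.00116. Replicates differed by about counting error, so these correlations cannot show whether the numbers pair the libraries. Size factors, library totals, no filter and both alternatives for the peak lists kept each count within 1.5 times, and no named peak reversed under any alternative. Over the named peaks 192 results kept their call and 97 lost it.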
